A study of Mus musculus with 4 samples.

Results

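A set of 10 genes that carry glucose from its uptake to lactate was followed in cultured mouse female germline stem cells (FGSCs), namely Slc2a1, Hk2, Pfkp, Aldoa, Gapdh, Pgk1, Pgam1, Eno1, Pkm and Ldha. They were found by gene symbol among the 53465 genes of the expression table, and all 10 were listed. The 10 symbols covered 11 rows, because Aldoa had a further row (ENSMUSG00000114515) with 9 fragments over all libraries, and values below are for its main row (ENSMUSG00000030695). The shNC group held 2 libraries from FGSCs given a control shRNA, and the shNAT10 group held 2 libraries from FGSCs given an shRNA against Nat10, which encodes the enzyme that writes N4-acetylcytidine (ac4C) into RNA. Per the study, both shRNAs were delivered to FGSCs by lentivirus, and infected cells were selected with antibiotics. The genotypes are labelled only as the shnc group and the shnat10 group. The study describes the libraries of a group as biological replicates, and how they were kept separate is not given in the labels. Whether the libraries rest on more than 1 isolation of cells is not stated, so p-values measure only the spread between these libraries.

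Glycolysis splits glucose into pyruvate in the cytosol and yields ATP and NADH, and lactate dehydrogenase then turns pyruvate into lactate and restores the NAD+ that the route needs. Glucose enters the cell through facilitative transporters, hexokinase traps it as a phosphate, and phosphofructokinase commits it to the route. Most steps can be made by more than 1 isozyme, and many cultured stem cells are known for a high use of the route.

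RNA was measured as FPKM, that is, as fragments per kilobase of exon divided by a factor for each library. Below, controls are the shNC libraries and knockdown the shNAT10 libraries, and a pair of values always gives library 1 and then library 2. Recovered fragments numbered 14902452 and 13029096 in the controls and 11057922 and 13771499 after knockdown. The factors did not follow these totals, since shNC-1 had the most fragments and the smallest factor. Nat10 checked the labels, at 7.79 and 5.42 FPKM in the controls against 2.95 and 3.04 FPKM after knockdown. It was lower by a log2 fold change of -1.09 (SE 0.21, limma, adjusted p = 0.123). The deposited FPKM are on a scale on which the median gene was level between groups, with a median log2 fold change of 0.01 over the 20116 genes with a mean of at least 0.1 FPKM. Germline markers were thin: Dazl, Pou5f1, Dppa3 and Tfap2c were listed at 0 in all libraries, Ddx4 was at 0.0529 FPKM in 1 library and 0 in the others, and Ifitm3 made up nearly all of the list's sum of 9.57 to 22.3 FPKM in the controls against 27.3 to 33.8 FPKM after knockdown. The 7 pan-leukocyte markers summed to 313 and 339 FPKM in the controls against 280 and 292 FPKM after knockdown, and 4 of the 7 were called lower. A call used the study's thresholds, a change of more than 1.2-fold with p no larger than 0.05 before adjustment, applied here to limma fits. The study itself used DESeq2. Such calls took in 7.83% of all genes tested as lower and 8.41% as higher. The 10 mast cell markers summed to 313 to 323 FPKM in the controls against 318 to 323 FPKM after knockdown, mostly from Cpa3, with Fcer1a and Tpsb2 at 0 in every library, and of the 5 tested Ms4a2 was called higher and Kit and Gata2 lower. Fibroblast markers summed to 44.2 to 51.0 FPKM in the controls against 49.9 to 59.5 FPKM after knockdown, mostly from Dcn. Lum was at 0 in every library, and Pdgfra, 1 of the 4 tested, was called higher, at 6.74 and 5.08 FPKM in the controls against 10.8 and 10.2 FPKM after knockdown (log2 fold change 0.83). Granulosa markers summed to 2.88 and 2.45 FPKM in the controls against 3.47 and 3.81 FPKM after knockdown, higher without overlap and mostly from Inhba, with Foxl2 and Fshr at 0 and 0 calls among 3 tested. Of the meiosis markers, Stra8 was at 0 in every library, and Sycp3 was at 0.337 and 0.666 FPKM in the controls against 0.756 and 0.774 FPKM after knockdown, without overlap, from 5 to 15 fragments per library, and it did not pass. Erythroid markers summed to at most 0.286 FPKM. Their part in the results was not tested.

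Slc2a1, Hk2, Pgk1 and Pkm, 4 of the 10 glycolysis genes, were lower in shNAT10, and 0 were higher. Of all genes tested, 7.83% were called lower and 8.41% higher. All 10 passed the filter on low values. In 7 of 10 genes the knockdown lay below the controls without overlap, which was so for 24.1% of all genes, and 8 of 10 fold changes were negative, against 49.5% of all genes. The median log2 fold change of the 10 genes was -0.40. None of the 10 passed an adjusted p of 0.05 in limma, whereas 5 did (Slc2a1, Aldoa, Gapdh, Pgk1 and Pkm, all lower) in limma-voom on recovered fragments, which called 3.62% of all genes lower and 4.26% higher. In these bulk samples fewer cells of a type and less RNA per cell cannot be told apart.

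The control libraries were unequal for this route. FPKM in shNC-2 was above that in shNC-1 for 10 of 10 genes, with a median log2 difference of 0.29, while the median over all genes was 0 and 47.4% of them were higher in shNC-2. The shNAT10 libraries lay closer together, with a median log2 difference of 0.06. Against shNC-1 alone the median of the 10 genes was -0.22 with 3 lower calls, where 7.18% of all genes were called lower. Against shNC-2 alone it was -0.47 with 8 lower calls, where 8.41% of all genes were. Without shNAT10-1 there were 2 lower calls, against 4.39% of all genes. Without shNAT10-2 there was 1, against 4.81% of all genes, namely Slc2a1, which was called lower whichever library was left out.

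**Figure D1:**
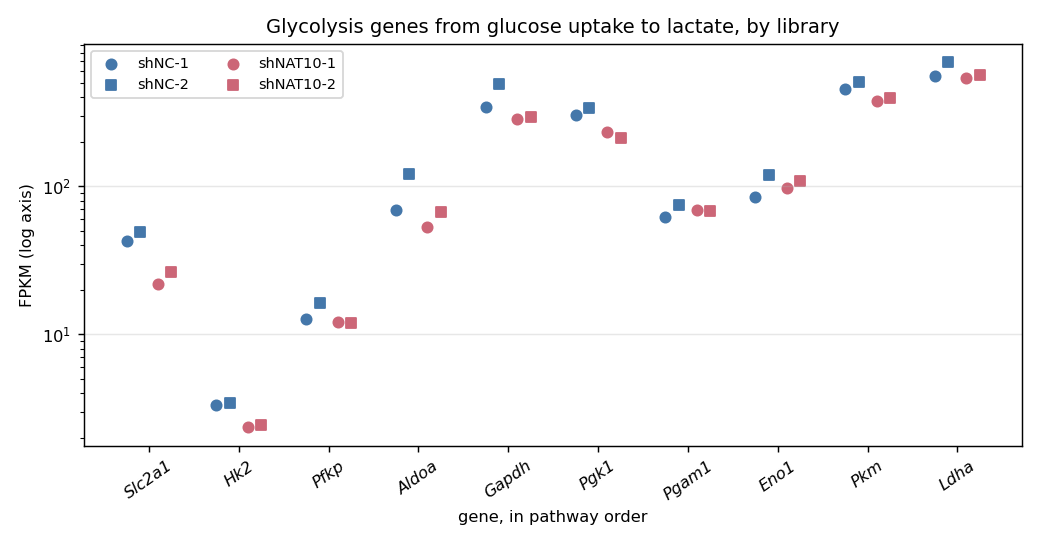
FPKM of the 10 glycolysis genes (log axis) in each library, in the order of the route; blue marks are the 2 shNC libraries and red marks the 2 shNAT10 libraries. The red marks of Slc2a1, Hk2 and Pgk1 lie clearly under the blue ones, those of Pgam1 and Eno1 lie between them, and shNC-2 is above shNC-1 for every gene.

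Together the 10 genes summed to 0.967% and 1.14% of the FPKM of protein-coding genes in the shNC libraries and to 0.820% and 0.860% in the shNAT10 libraries. The groups did not overlap, and the exact two-sided permutation p was 0.333, the smallest that 2 libraries against 2 allow. The unscaled fragments on the 10 genes, 86244 and 108623 in the controls and 81348 and 103220 after knockdown, did overlap. Ldha, Pkm and Gapdh stood near the top of the protein-coding genes by mean FPKM, at ranks 37, 60 and 80, whereas Hk2 stood at rank 6985. These FPKM divide by all annotated exon bases of a gene, which for Gapdh were 4133 bases against 1420 in its principal transcript. For Pfkp they were 13401 against 4145, and for Eno1 5379 against 2027. The same lengths enter the isozyme shares and the percentages of Gapdh given below. The size of a share therefore depends on annotation and does not rank isozymes by number of molecules. Rescaled to the principal transcript, mean levels over the 4 libraries were 1105 FPKM for Ldha, 1026 for Gapdh, 894 for Pkm, 335 for Pgk1, 272 for Eno1, 150 for Aldoa, 76.5 for Pgam1, 42.9 for Pfkp, 37.7 for Slc2a1 and 3.13 for Hk2. On that scale the libraries of Ldha, Gapdh and Pkm overlapped, as did those of Pfkp and Slc2a1. The order by group means differed, with Gapdh above Ldha and Slc2a1 above Pfkp in the controls and both below after knockdown, and Hk2 was far under all others. Genes that hold stretches of the Gapdh sequence took 68.3% to 71.6% as many fragments as Gapdh across the libraries. The ranks and levels leave these out, so the place of Gapdh in the order is uncertain.

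Glucose uptake showed the largest fall among the 10 genes. Slc2a1 (ENSMUSG00000028645, chr4:119108711-119137983 of GRCm38, plus strand) encodes GLUT1, the transporter for basal glucose entry. Its level was 42.8 and 49.0 FPKM in the controls against 22.0 and 26.5 FPKM after knockdown. Both shNAT10 libraries were thus far below both controls, and the mean fell from 45.9 ± 4.37 to 24.2 ± 3.21 FPKM (SD, n = 2). The log2 fold change was -0.92 (SE 0.13, 95% interval -1.28 to -0.57, limma, adjusted p = 0.0846), and limma-voom on fragments gave an adjusted p of 1.85e-06. It ranged from -1.06 to -0.79 when each library was left out in turn.

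Of the other transporters, Slc2a3, which encodes the high-affinity GLUT3, moved in the same direction. Its level was 41.3 and 51.7 FPKM in the controls against 27.7 and 24.1 FPKM after knockdown (log2 fold change -0.84, SE 0.15, limma, adjusted p = 0.114). Slc2a6, which encodes GLUT6, was at 19.9 and 16.7 FPKM in the controls against 13.1 and 14.4 FPKM after knockdown, a log2 fold change of -0.40 that passed the threshold. Slc2a8, Slc2a9, Slc2a10 and Slc2a12 stayed at or below 2.12 FPKM and did not pass, and Slc2a2, Slc2a4 and Slc2a5 were under the filter. Slc2a1 and Slc2a3 together gave 84.1 and 101 FPKM in the controls against 49.7 and 50.6 FPKM after knockdown. Slc2a1 held 39.9% and 40.7% of the transporters' FPKM in shNC and 33.6% and 38.8% in shNAT10, so that its share fell by 4.14 percentage points (exact permutation p = 0.333, adjusted p = 0.471; a difference of -6.75 to -1.54 points with 1 library left out, the smallest without shNAT10-1) while the summed level of the step went from 107 and 120 FPKM to 65.4 and 68.3 FPKM.

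Hexokinase traps glucose in the cell. Hk2 (ENSMUSG00000000628, chr6:82725025-82774454, minus strand), the inducible hexokinase bound to mitochondria, was at 3.35 and 3.42 FPKM in the controls against 2.35 and 2.44 FPKM after knockdown. Both pairs were tight and did not overlap. The log2 fold change was -0.48 (SE 0.14, 95% interval -0.84 to -0.13, limma, adjusted p = 0.214), from 176 to 242 fragments per library. Hk1, the constitutive hexokinase, was at 3.42 and 3.06 FPKM in the controls against 3.60 and 4.24 FPKM after knockdown, a log2 fold change of 0.26 that did not pass (limma, adjusted p = 0.478). Hk3 and Hkdc1 were under the filter. The balance within the step moved accordingly. Hk2 held 48.5% and 51.7% of hexokinase FPKM in shNC and 39.5% and 36.2% in shNAT10, so that its share fell by 12.2 percentage points, while the summed FPKM of the step was 6.91 and 6.60 in shNC and 5.95 and 6.72 in shNAT10. The exact permutation p of this share was 0.333, the smallest possible, and 0.471 after adjustment over 24 isozyme shares.

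The middle of the route changed less clearly. Gpi1, glucose-6-phosphate isomerase, was at 18.9 and 24.7 FPKM in the controls against 14.3 and 15.9 FPKM after knockdown, and it passed the threshold as lower (log2 fold change -0.51, limma, adjusted p = 0.242). Pfkp (ENSMUSG00000021196, chr13:6579768-6648777, minus strand), the platelet-type phosphofructokinase, was at 12.7 and 16.3 FPKM in the controls against 12.1 and 11.9 FPKM after knockdown. The groups did not overlap, but shNC-1 lay close to the knockdown libraries, and the log2 fold change of -0.26 did not pass (SE 0.15, 95% interval -0.64 to 0.13, limma, adjusted p = 0.474). The last exons of Pfkp overlap those of Pitrm1 on the opposite strand, and 15.0% of the 150-base windows of the principal Pfkp transcript also lie in Pitrm1, so fragments there may have been assigned to either gene. Pfkl, the liver type, and Pfkm, the muscle type, had log2 fold changes of -0.17 and -0.10 with overlapping groups. Pfkp held 36.7% and 39.0% of the summed FPKM of the step in shNC and 37.8% and 34.1% in shNAT10, and the shares of Pfkp and Pfkl overlapped between groups. The share of Pfkm was higher without overlap, at 25.7% and 24.0% in shNC against 26.0% and 26.6% in shNAT10, a difference of 1.49 percentage points (exact permutation p = 0.333, adjusted p = 0.471). With 1 library left out, this difference ran from 0.62 to 2.36 points.

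Aldoa (chr7:126795234-126800751, minus strand) encodes aldolase A, which splits fructose 1,6-bisphosphate. It was at 69.1 and 121 FPKM in the controls against 53.6 and 67.2 FPKM after knockdown. The 2 control libraries differed by more than shNC-1 did from either knockdown library, and the log2 fold change of -0.61 had an interval of -1.39 to 0.18 (SE 0.30, limma, adjusted p = 0.402). It ranged from -1.01 without shNC-1 to -0.20 without shNC-2. Aldoc, the brain type, stayed below 1 FPKM and did not pass. Tpi1, which makes the triose phosphates exchangeable, was at 303 and 393 FPKM in the controls against 286 and 292 FPKM after knockdown, a log2 fold change of -0.26 that did not pass.

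Gapdh (ENSMUSG00000057666, chr6:125161715-125166467, minus strand) encodes glyceraldehyde-3-phosphate dehydrogenase, which reduces NAD+ in the oxidative step. It was also the internal control of the study's RT-qPCR. Its level was 342 and 489 FPKM in the controls against 287 and 293 FPKM after knockdown. The knockdown libraries were nearly equal and both below the controls, of which shNC-2 was far above shNC-1. The log2 fold change was -0.50 (SE 0.19, 95% interval -0.998 to 0.01, limma, adjusted p = 0.307), just outside the threshold, and limma-voom on fragments gave an adjusted p of 0.0019. It ranged from -0.75 without shNC-1 to -0.24 without shNC-2. Among the 4 genes called, Pkm lay nearest to the threshold. Gapdhs, the isozyme known from sperm, was at 2.12 and 2.25 FPKM in the controls against 1.48 and 0.851 FPKM after knockdown, from 21 to 43 fragments per library, and passed as lower (log2 fold change -0.89).

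The RT-qPCR primers for Gapdh that the study lists show how much of this gene is repeated elsewhere, and they are printed 5′ to 3′ with the bases of the downstream exon in capitals where a primer crosses an exon junction.
Gapdh F: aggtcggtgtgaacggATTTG
Gapdh R: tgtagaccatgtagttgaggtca
The forward primer covers 16 bases at the end of exon 2 (chr6:125165271-125165286) and 5 bases of exon 3 (chr6:125163432-125163436) of the principal transcript, and the reverse primer lies in exon 3 (chr6:125163330-125163352), for a product of 123 bases. Both primers match exactly in the annotated transcripts of 45 other genes, of which 38 had FPKM above 0 in some library. The strongest of these was Gm13394, a processed pseudogene (chr2:28933610-28934609), chosen for mention after its values were seen. It was listed at 963 and 1340 FPKM in the controls against 815 and 841 FPKM after knockdown, which followed the order of the Gapdh values, and its fragments came to between 66.3% and 69.4% of those of Gapdh in each library. Of the 150-base windows of the principal Gapdh transcript, 74.0% also occur in other genes. Fragments of Gapdh and its copies could therefore have been exchanged in counting. Summed over Gapdh and the 49 genes that share its windows, the log2 difference between groups was -0.48, against -0.50 for Gapdh alone.

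Pgk1 (ENSMUSG00000062070, chrX:106187100-106203699, plus strand) encodes phosphoglycerate kinase 1, which makes the first ATP of the route. It was at 305 and 337 FPKM in the controls against 235 and 213 FPKM after knockdown. All values of the knockdown lay well below the controls, and the spread within each pair was small. The log2 fold change was -0.52 (SE 0.11, 95% interval -0.80 to -0.24, limma, adjusted p = 0.136), and limma-voom gave an adjusted p of 0.000208. Its processed pseudogene Pgk1-rs7 shares 66.0% of its windows but took at most 0.301% as many fragments. Pgk2, the isozyme known from testis, was at 0 in every library.

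The next steps did not follow. Pgam1 (ENSMUSG00000011752, chr19:41911923-41918660, plus strand), the phosphoglycerate mutase of most tissues, was at 62.3 and 74.6 FPKM in the controls against 68.8 and 68.2 FPKM after knockdown. The knockdown libraries lay between the controls, with a log2 fold change of 0.01 and a 95% interval of -0.29 to 0.31. Eno1 (ENSMUSG00000063524, chr4:150236721-150248879, plus strand), enolase 1, was at 84.3 and 120 FPKM in the controls against 97.7 and 108 FPKM after knockdown. These groups also overlapped, with a log2 fold change of 0.03 and an interval of -0.48 to 0.54, so that falls as large as that of Slc2a1 lay outside both intervals. Eno1 shares 49.0% of its windows with the retrogene Eno1b and the pseudogene Gm4735. Eno1b was at 54.9 and 70.6 FPKM in the controls against 56.2 and 61.8 FPKM after knockdown, and the sum over Eno1 and both copies had a log2 difference of -0.004, so the split between them is uncertain while the sum was level.

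Minor isozymes of these steps moved apart from the main ones. Eno2, the neuronal enolase, was at 18.4 and 21.6 FPKM in the controls against 10.3 and 10.8 FPKM after knockdown (log2 fold change -0.91, SE 0.12, limma, adjusted p = 0.0751). Eno3, the muscle enolase, was at 11.7 and 12.3 FPKM in the controls against 15.3 and 19.6 FPKM after knockdown (log2 fold change 0.53, SE 0.15, limma, adjusted p = 0.21). Eno2 thus went from 16.1% and 14.0% of enolase FPKM in shNC to 8.31% and 7.79% in shNAT10, and Eno3 from 10.3% and 7.94% to 12.4% and 14.1%, with Eno1b left out of the sum. Pgam2, the muscle mutase, was at 2.13 and 1.70 FPKM in the controls against 0.569 and 0.777 FPKM after knockdown, a log2 fold change of -1.39 that rests on 6 to 21 fragments per library. Bpgm, which makes 2,3-bisphosphoglycerate, had a log2 fold change of -0.19 and did not pass.

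Pkm (ENSMUSG00000032294, chr9:59656368-59679375, plus strand) encodes the muscle pyruvate kinases M1 and M2, which gene-level values cannot separate. It was at 458 and 505 FPKM in the controls against 379 and 396 FPKM after knockdown. The groups did not overlap, and the change was modest, with a log2 fold change of -0.31 (SE 0.10, 95% interval -0.58 to -0.04, limma, adjusted p = 0.253). It remained past the threshold in 1 of the 4 fits without a library, the one without shNC-1, and it was also lost with no filter on low values and in limma without trend.

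Lactate dehydrogenase closes the route. Ldha (ENSMUSG00000063229, chr7:46841475-46855627, plus strand), whose subunit favours the making of lactate, was at 555 and 691 FPKM in the controls against 544 and 568 FPKM after knockdown. The library shNAT10-2 exceeded shNC-1, and the log2 fold change of -0.16 did not pass (SE 0.14, 95% interval -0.53 to 0.22, limma, adjusted p = 0.618). Ldhb, whose subunit is typical of oxidative tissues, was at 4.66 and 3.97 FPKM in the controls against 15.1 and 10.3 FPKM after knockdown. It had the largest rise among the pathway genes tested, a log2 fold change of 1.52 (SE 0.22, 95% interval 0.94 to 2.09, limma, adjusted p = 0.0842), from 86 and 74 fragments in shNC to 297 and 249 in shNAT10. The ratio of Ldha to Ldhb went from 119 and 174 in shNC to 36.1 and 54.9 in shNAT10, yet Ldhb still held only 2.70% and 1.79% of the step's FPKM after knockdown, against 0.833% and 0.571% in the controls. Ldhc was at 0 in all libraries.

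**Figure D2:**
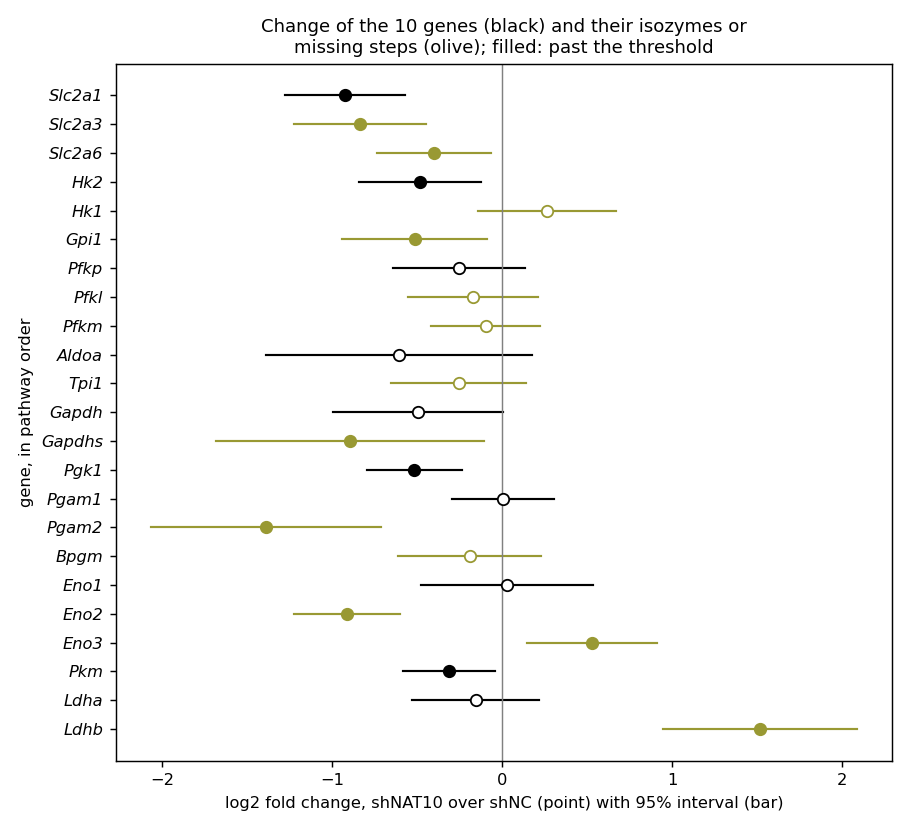
Log2 fold change of shNAT10 over shNC (points) with its 95% interval from limma (bars), for the 10 genes in black and for isozymes and the remaining steps in olive; filled points passed the threshold. Slc2a1, Slc2a3 and Slc2a6 lie to the left of 0, Pgam1 and Eno1 sit at 0, and Ldhb at 1.52 lies farthest to the right.

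**Figure D3:**
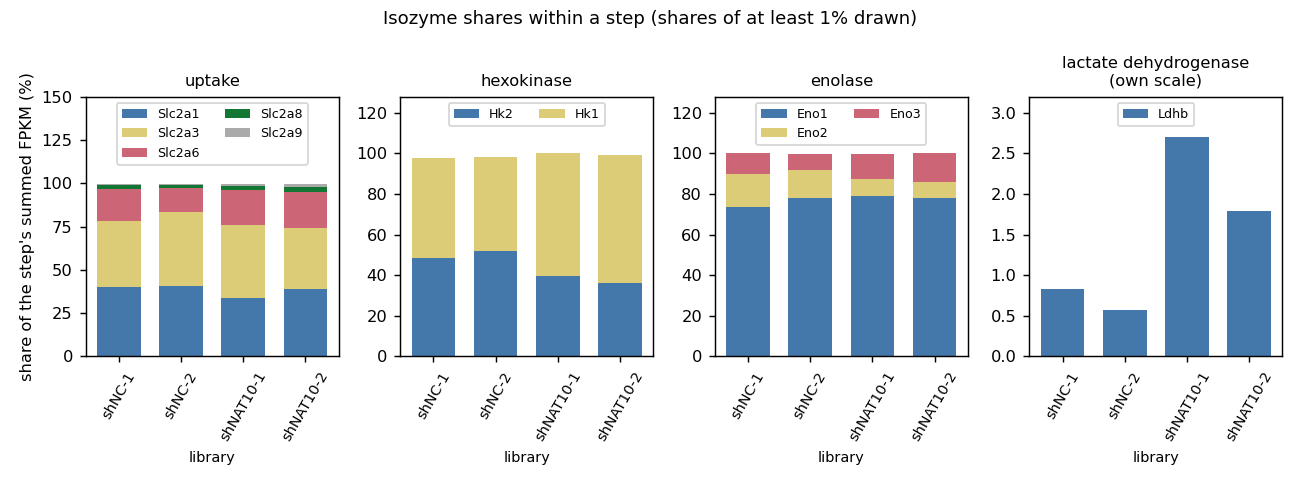
Share of a step's summed FPKM held by each isozyme in each library, in percent; the lactate dehydrogenase panel has its own axis and shows Ldhb only. Hk2 falls from 48.5% and 51.7% to 39.5% and 36.2%, Eno2 shrinks, and Ldhb rises from below 1% to 2.70% and 1.79%.

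Because Gapdh is used as a reference, each of the other 9 genes was also expressed relative to Gapdh in the same library, a measure that does not depend on how libraries are scaled. Slc2a1 came to 12.5% and 10.03% of Gapdh in shNC and to 7.66% and 9.03% in shNAT10. It was the only gene of the 9 with a lower ratio and no overlap between groups, a log2 difference of -0.43, which was so for 4.29% of all genes tested. With 1 library left out, the difference of Slc2a1 ran from -0.59 to -0.27. For 4 of the 9 genes the ratio was higher without overlap, as it was for 51.8% of all genes. Since Gapdh itself was at -0.50 on the log2 FPKM scale, a gene at a level FPKM has a higher ratio, and Eno1 and Pgam1 were at 0.03 and 0.01 on that scale. Eno1 went from 24.7% and 24.6% of Gapdh to 34.1% and 36.9%, and Pgam1 from 18.2% and 15.3% to 24.0% and 23.3%. Ldha went from 162% and 141% to 190% and 194%, and Pfkp from 3.71% and 3.34% to 4.23% and 4.07%. Hk2, Aldoa, Pgk1 and Pkm overlapped between groups. Hk2 and Pgk1, which were lower on the FPKM scale, had log2 differences of -0.004 and -0.02 relative to Gapdh. These average over the unequal controls, and with 1 library left out they ran from -0.25 to 0.24 for Hk2 and from -0.21 to 0.16 for Pgk1. No ratio can reach p = 0.05 in this design, and the 5 ratios without overlap had an exact permutation p of 0.333 and an adjusted p of 0.6 over the 9 ratios.

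**Figure D4:**
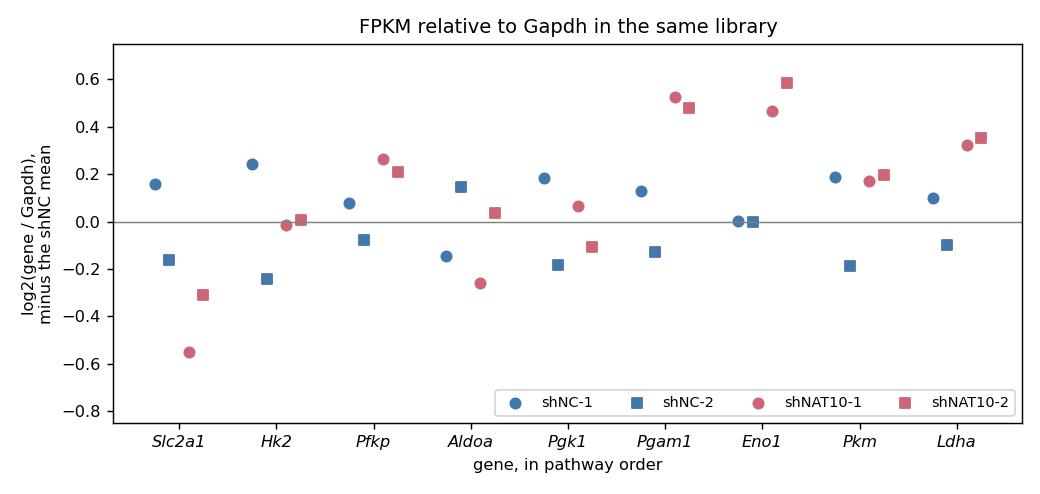
Log2 ratio of each gene to Gapdh in the same library, less the shNC mean of that gene; blue marks are shNC and red marks shNAT10. Relative to Gapdh, Slc2a1 is lower, Eno1, Pgam1, Ldha and Pfkp are higher, and the other 4 genes overlap between groups.

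Around these genes, 74 further genes of the route, its regulators and its branches were listed, of which 57 were tested and 17 fell under the filter. Of these, 7 passed the threshold as higher and 10 as lower, against 8.41% and 7.83% of all genes. The lower calls came to 17.5% of those tested, and the median log2 fold change was -0.11. None passed an adjusted p of 0.05 in limma. At that cutoff limma-voom on fragments called 5 higher and 6 lower, against 4.26% and 3.62% of all genes. Of the regulators of phosphofructokinase, Pfkfb4, a bifunctional kinase and phosphatase that sets fructose 2,6-bisphosphate, was at 1.90 and 2.06 FPKM in the controls against 0.801 and 1.18 FPKM after knockdown (log2 fold change -0.95). Tigar, a phosphatase of the same metabolite, was also lower (log2 fold change -0.60), while Pfkfb1, Pfkfb2 and Pfkfb3 did not pass.

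Of the reverse route, 4 of 7 genes were tested, and 1 passed as higher and 1 as lower, against 8.41% and 7.83% of all genes. Fbp2, the muscle fructose 1,6-bisphosphatase that opposes phosphofructokinase, was at 41.7 and 47.9 FPKM in the controls against 78.2 and 97.6 FPKM after knockdown. Its log2 fold change was 0.97 (SE 0.15, limma, adjusted p = 0.0899), and 0.81 to 1.13 with 1 library left out. Pck2, the mitochondrial phosphoenolpyruvate carboxykinase, went from 16.3 and 16.4 FPKM down to 11.2 and 11.9 FPKM, a log2 fold change of -0.50. Pcx, pyruvate carboxylase, was at 7.84 and 5.74 FPKM in the controls against 3.87 and 5.32 FPKM after knockdown, without overlap, and it did not pass in limma (log2 fold change -0.56, adjusted p = 0.342), whereas limma-voom gave an adjusted p of 0.0448. G6pc3, a glucose-6-phosphatase subunit, overlapped between groups (log2 fold change -0.17). Fbp1, Pck1 and G6pc were under the filter.

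Past pyruvate, the counts of calls are read against the 16.2% of all genes called in either direction. Of the pyruvate dehydrogenase group, 10 of 11 genes were tested and 1 passed, Pdhx, a binding subunit of the complex (log2 fold change 0.35, limma, adjusted p = 0.239). With 1 library left out, Pdhx ran from 0.28 to 0.42. Pdha1 was at 47.7 and 46.1 FPKM in the controls against 46.9 and 47.1 FPKM after knockdown. The lactate and pyruvate carriers gave 0 calls among 6 tested in limma. The lactate carrier Slc16a1 was at 20.7 and 14.5 FPKM in the controls against 28.6 and 21.8 FPKM after knockdown, which did not overlap but did not pass (log2 fold change 0.52, limma, adjusted p = 0.357). Limma-voom gave it an adjusted p of 0.0185, and the fit with a replicate block also called it higher. In the pentose phosphate branch, which draws glucose 6-phosphate off for NADPH, 1 of 8 genes passed, Pgd (log2 fold change 0.33), a share near that of all genes.

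Among 7 regulators of transcription and of uptake, 6 were tested, and 2 passed as higher and 1 as lower, against 8.41% and 7.83% of all genes. Hif1a, the subunit of the hypoxia factor that is controlled by oxygen, was at 44.5 and 40.6 FPKM in the controls against 54.7 and 50.1 FPKM after knockdown (log2 fold change 0.30, limma, adjusted p = 0.248, called higher). With 1 library left out, Hif1a ran from 0.23 to 0.37. Its partner subunit Arnt lay the other way, at 1.47 and 1.28 FPKM in the controls against 1.01 and 1.00 FPKM after knockdown, without overlap, and did not pass (log2 fold change -0.41, limma, adjusted p = 0.41). Myc was at 13.1 and 13.9 FPKM in the controls against 11.4 and 9.27 FPKM after knockdown (log2 fold change -0.39, limma, adjusted p = 0.274, called lower). It ran from -0.54 to -0.24 with 1 library left out. The hypoxia factor and Myc are known activators of glycolysis genes. Mlx and Mlxip, which answer to glucose phosphates, had log2 fold changes of -0.23 and -0.27 and did not pass, and Mlxipl was under the filter. Txnip, an inhibitor of glucose uptake that is itself induced by glucose, was at 19.7 and 19.2 FPKM in the controls against 27.6 and 26.7 FPKM after knockdown, a log2 fold change of 0.48 (SE 0.08, limma, adjusted p = 0.111).

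The core ACGTG is common to the hypoxia response element and, as CACGTG, to the E-box that Myc binds, and it was looked for on both strands in the 250 bases before each RefSeq start (GRCm38.p6). All 10 genes matched, with 16 start sites. At least 1 window held ACGTG in 7 of 10 genes, and 8 of 16 windows did, against 16.6% of all 32851 windows. The 4 genes called lower all had it (Slc2a1, Hk2, Pgk1 and Pkm), as did 3 of the other 6 (Aldoa, Pgam1 and Ldha). CACGTG occurred in 1 gene, Ldha, and in 6.02% of all windows. Some of these stretches are shown on the strand of the gene, with each match to ACGTG or its complement CACGT in capitals.
Slc2a1: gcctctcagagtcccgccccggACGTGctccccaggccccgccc
Hk2: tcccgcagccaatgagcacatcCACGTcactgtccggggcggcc
Pgk1: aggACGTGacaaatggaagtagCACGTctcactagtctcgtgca
Ldha: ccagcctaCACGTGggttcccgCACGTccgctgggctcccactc
They lie at chr4:119108687-119108730 (plus strand) for Slc2a1, chr6:82774485-82774528 (minus strand) for Hk2, chrX:106186947-106186990 (plus strand) for Pgk1 and chr7:46845748-46845791 (plus strand) for Ldha, and that of Slc2a1 runs into the first exon of the longer GENCODE transcript. Ldha, which did not pass the threshold, had 5 such matches, with its CACGTG counted on both strands, while Slc2a1, which fell most, had 1. A match describes letters in a window only, and genes with several start sites had more windows in which to find one.

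1 choice of scale moved all genes together. When libraries were scaled to the same FPKM total without rRNA-related loci, the median of all genes was at 0.49, with 1.00% of them called lower and 22.7% higher. The median of the 10 genes was then at 0.12 and 0 of the 10 were called lower, with Slc2a1 still negative at -0.40. This scaling applies a factor to each library, so subtracting that shift brings back nearly the deposited values by construction and adds no evidence. So taken, Slc2a1 was at -0.89, Pgk1 at -0.48, Hk2 and Gapdh at -0.46 and Pkm at -0.28 on the log2 scale. With the short locus Gm23935 also left out of the total, a setting chosen after the data were seen, the median of all genes was at 0.05 and 5 of the 10 were called lower, as were 6.37% of all genes.

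**Figure D5:**
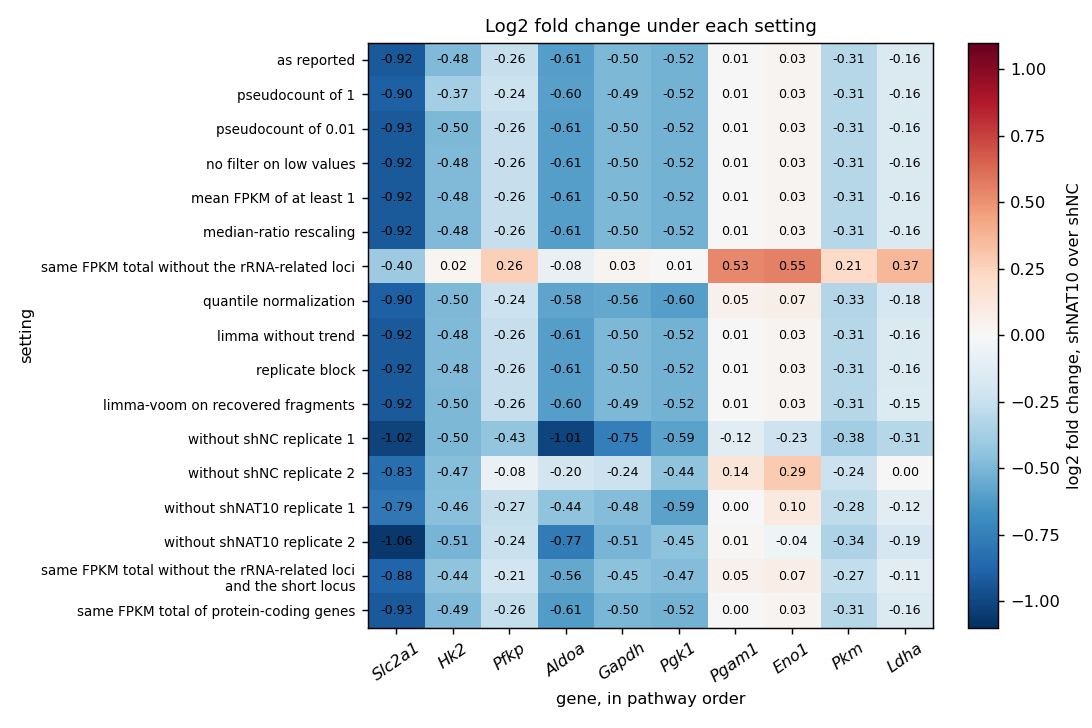
Log2 fold change of each gene (columns) under each setting (rows), printed in the cell and coloured from blue (lower in shNAT10) to red (higher). Slc2a1 is lower in every row, and the row scaled to the same total without rRNA-related loci stands apart, with 8 of 10 genes above 0.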

How the data were processed

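Long RNA-seq of FGSCs (2 shNC and 2 shNAT10 libraries) was grouped by the sample titles. According to the methods, total RNA was depleted of rRNA and sequenced as paired reads of 150 bases, whereas the labels name a poly(A) kit, so the selection of RNA is uncertain. The submitters' processing notes name cutadapt, HISAT2, DESeq2 and mm10, and no versions or counting program are given in the sources used here. The authors deposited FPKM per gene. A shorter table with the same FPKM was not used.

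For 99.8% of gene IDs an exon length was found in GENCODE M21 (GRCm38). Whole fragments were recovered from FPKM with these lengths, and 96.3% of values under 50 fragments were whole within 0.02. Log2(FPKM + 0.1) of the 20116 genes with a mean of at least 0.1 FPKM was compared with limma 3.58.1 (lmFit, eBayes with trend; R 4.3.3), two-sided, with Benjamini-Hochberg adjustment over all of them; intervals are at 95%. This scale understates changes of low genes. Ratios and shares were compared with exact permutation tests over the libraries. Other steps used Python 3.11.15 (numpy 2.4.6, pandas 2.3.3, scipy 1.17.1, matplotlib 3.10.9). Windows of 150 bases were matched against GENCODE transcripts, and promoters came from RefSeq (GRCm38.p6).

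The 10 genes and all lists were chosen with earlier results of these data known. The text names all 10, the isozymes of the same steps with a mean of at least 0.1 FPKM, and other listed genes past the threshold. Alternatives were other pseudocounts, filters, scalings and tests, a replicate block and leaving out each library.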

Additional observations from a re-analysis of the deposited data

How the results depend on the processing

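Calls of the 10 genes kept their direction under other pseudocounts, filters, median-ratio rescaling, quantile normalization, limma without trend, the replicate block and limma-voom, with 3 to 6 lower and 0 higher. Of all genes, these settings called 6.04% to 11.1% lower and 6.94% to 10.9% higher. Scaling to the same FPKM total without rRNA-related loci gave 0 lower and a median of 0.12, and for the 57 other pathway genes tested 14 higher and 1 lower, where 22.7% of all genes were called higher and 1.00% lower. Under it log2 fold changes were 0.0066 for Pgk1, 0.023 for Hk2, 0.029 for Gapdh, 0.37 for Ldha, 0.21 for Pkm and 0.26 for Pfkp. That scaling put the median of all genes at 0.49. Pkm lost its call with no filter on low values and in limma without trend. Limma without trend called 3 other pathway genes higher and 6 lower, against 7.64% and 6.04% of all genes, and the cause was not tested.

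With 1 library left out, where the lone sample is assumed to vary like the other group, 1 to 8 of the 10 genes were lower, their median ran from -0.47 to -0.22, and the other pathway genes gave 3 to 4 higher and 4 to 11 lower. Of all genes, the same fits called 8.41% lower without shNC-1, 7.18% without shNC-2, 4.39% without shNAT10-1 and 4.81% without shNAT10-2, and 5.20% to 8.89% higher. Signs turned for Eno1 (-0.23 to 0.29, negative without shNC-1 and, at -0.04, without shNAT10-2), Pgam1 (-0.12 to 0.14, negative without shNC-1) and Ldha (-0.31 to 0.0021, at 0 without shNC-2). Hk2 lost its call without either shNAT10 library and Pgk1 without shNAT10-2.

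Library numbers did not pair the samples, as the correlation of deviations from group means was 0.0071 over 20116 genes. With the number as a replicate block, 6 of the 10 genes were lower, Gapdh and Aldoa being added, and the other pathway genes gave 8 higher and 10 lower. That fit called 7.59% of all genes lower and 7.89% higher. Gapdh was also called under quantile normalization, the stricter filter and the scalings added after the data were seen. With 1 library left out, Gpi1 ran from -0.71 to -0.32 and Gapdhs from -1.26 to -0.53 in log2 fold change. Eno3 ran from 0.35 to 0.70 and Pgd from 0.23 to 0.43. Few fragments limit low genes such as Pgam2 and Gapdhs, and the spread between control libraries limits Gapdh and Aldoa.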
